A study of Mus musculus with 3 samples.

Results

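Oxidative phosphorylation is carried out by 5 protein complexes of the inner mitochondrial membrane, and most of their subunits are encoded in the nucleus. The genes described here are those whose symbol starts with Uqcr, with Atp5, with Cox and a digit from 4 to 8, or with Nduf, a subunit letter (a, b, c, s or v) and a digit, together with *Sdha*, *Sdhb*, *Sdhc* and *Sdhd*. The rule used symbols only and no measured value. It found 82 of the 17633 genes with reads. Of these, 35 were grouped with complex I, 4 with complex II, 8 with complex III, 17 with complex IV and 17 with complex V. *Cox4nb* was grouped with none. Accepted subunits number 77, and the other 5 matched by name alone.

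The measurements came from E7.5 mouse embryos of the ICR strain, from which the embryonic region had been cut off and its germ layers separated. RNA of endoderm, mesoderm and epiblast, pooled over many embryos, was sequenced in a single library for each germ layer (n = 1), so that no difference below has a replicate check. The epiblast sample holds the primitive streak as well as the prospective neuroectoderm. All 3 pairs of libraries share libraries with one another.

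Complex I (NADH dehydrogenase) and complex II (succinate dehydrogenase) feed electrons into ubiquinone, complex III passes them on to cytochrome c, and complex IV (cytochrome c oxidase) gives them to oxygen. The proton gradient built up on the way drives complex V, the ATP synthase. Several subunits of complex IV exist as alternative isoforms, among them forms known from muscle and testis and forms induced by low oxygen. The embryo at gastrulation is known for a high rate of glycolysis, and its mitochondria mature later.

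The libraries held 41.7 M reads counted on genes for endoderm, 40.8 M for mesoderm and 42.7 M for epiblast. RPKM, the reads of a gene per kilobase of its length and per 1 M reads of the library, was used as deposited. Each listed germ layer marker was highest in its own layer, 3 of 3 for endoderm, 5 of 5 for mesoderm and 4 of 4 for epiblast, but not all were confined to it. *Sox17*, a transcription factor of endoderm, had an RPKM of 39.5 in endoderm and at most 1.0 elsewhere. *Kdr*, a receptor of vascular mesoderm, had 40.8 in mesoderm and at most 0.771 elsewhere, and *Sox2*, of the epiblast, had 42.7 in epiblast and at most 1.33 elsewhere. *Cer1*, an endoderm marker, had 137.9 in endoderm and 47.4 in mesoderm, and *Tbx6*, a mesoderm marker, had 38.7 in mesoderm and 34.1 in epiblast. The epiblast markers summed to 1437 in epiblast, 242.3 in endoderm and 270.1 in mesoderm. All 6 visceral endoderm markers were detected in endoderm, with a summed RPKM of 5312 there, 4.33 in mesoderm and 3.61 in epiblast. The 6 cardiac muscle markers summed to an RPKM of 129.1 in mesoderm, 12.6 in epiblast and 7.03 in endoderm. Most of the mesoderm sum was *Myl7*, an atrial myosin light chain, at 103.3, and *Myh6* was highest in epiblast, at 1.54. The part of either cell population in the values below was not tested, and fewer cells of a type cannot be told apart from less RNA per cell.

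The oxidative phosphorylation genes were abundantly and nearly evenly expressed in all 3 germ layers. They took 1.10% of the reads in the endoderm (95% exact binomial interval 1.10 to 1.11%), 1.04% in the mesoderm (1.04 to 1.05%) and 1.14% in the epiblast (1.14 to 1.15%). These and all later intervals cover counting error only. Their RPKM summed to 12570 in the endoderm, 11485 in the mesoderm and 12718 in the epiblast, with medians of 105.2, 91.9 and 104.9. The median over all genes was 3.66 in the endoderm, 3.31 in the mesoderm and 3.29 in the epiblast. In every library 77 of the 82 genes had RPKM>5 and 74 had RPKM>20. The highest of the 3 values was less than 1.5 times the lowest for 69 genes and less than 2 times for 76. It was more than 2 times the lowest for 5 genes, which were *Cox4i2*, *Ndufa4l2*, *Cox7a1*, *Cox6b2* and *Atp5s*, and *Cox7b2*, with 1 read in all, gave no ratio. RPKM was highest in epiblast for 45 genes, in endoderm for 30 and in mesoderm for 7, and lowest in mesoderm for 44 genes. Over all 17633 genes, RPKM was highest in epiblast for 5859, in endoderm for 6298 and in mesoderm for 5476. Over the 1595 genes under 1000 bases the counts were 656, 537 and 402. *Cox7b2*, with its 1 read, is among the 7 members highest in mesoderm.

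**Figure D1:**
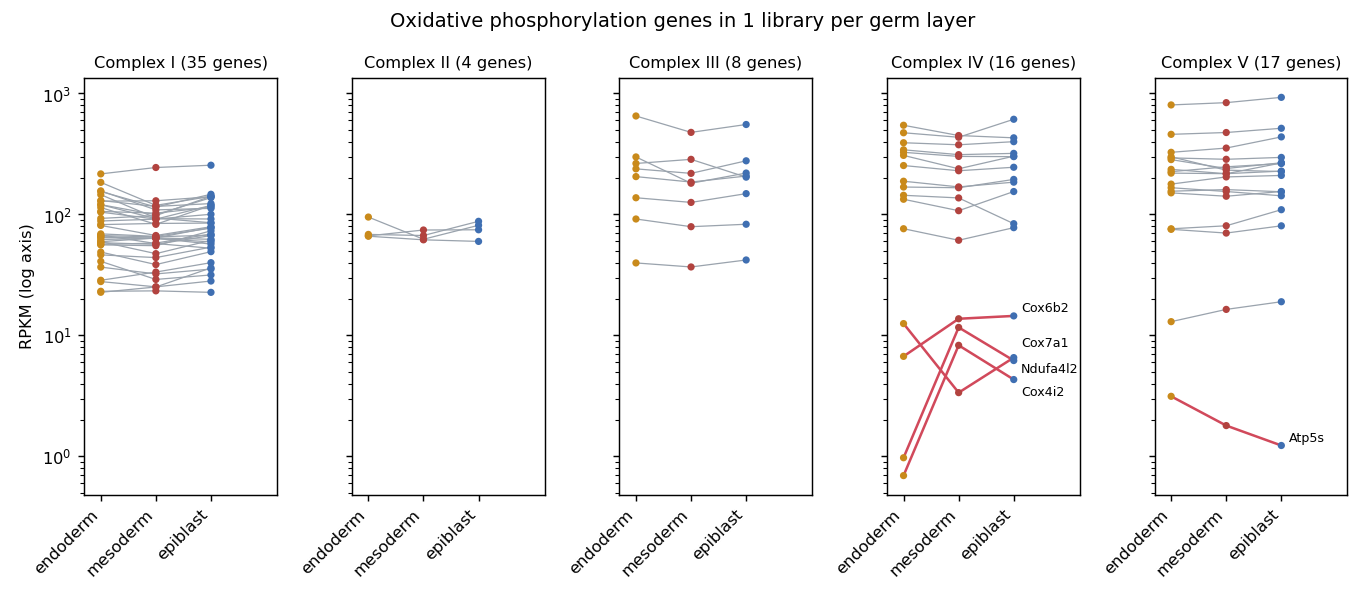
RPKM (log axis) of each gene of complexes I to V in the endoderm, mesoderm and epiblast libraries, with 1 line per gene and no error since each germ layer has 1 library. Red lines mark genes whose highest value is more than 2 times the lowest, 4 grouped with complex IV and Atp5s with complex V. Cox7b2, with 1 read in all, and Cox4nb, of no complex, are not drawn.

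Genes were compared between libraries by the criteria of the study, which ask for RPKM>5 in either of the 2 libraries, Fold Change>2 and FDR<0.001 in an exact test of the reads. That test compares 2 libraries, not germ layers as conditions. Of the 82 genes, 80 passed the RPKM filter for endoderm and mesoderm, 79 for endoderm and epiblast and 80 for mesoderm and epiblast. *Cox7b2* and *Atp5s* did not pass in any pair, and *Cox4i2* did not pass between endoderm and epiblast. Between endoderm and mesoderm, *Cox7a1* alone was higher in endoderm, where 14.4% of the 8867 genes tested were. *Cox4i2*, *Ndufa4l2* and *Cox6b2* were higher in mesoderm, where 8.56% of the genes tested were. Between endoderm and epiblast, 0 of 79 were higher in endoderm against 15.7% of all 8843 genes tested, and *Ndufa4l2* and *Cox6b2* were higher in epiblast against 8.94%. Scaling by the trimmed mean of M values or by the median of ratios moved 2 calls that lay close to 2-fold. Under either, *Cox6b2* no longer passed between endoderm and mesoderm, leaving 3 calls of 4, and *Cox7a1* became higher in endoderm than in epiblast, at a log2 ratio of 1.04. Between mesoderm and epiblast, 0 of 80 were called in either direction. Among all 8340 genes tested there, 5.3% were called higher in mesoderm and 5.02% higher in epiblast. Without scaling, 4 genes thus met the criteria in any pair, all grouped here with complex IV.

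With a lower bar of 1.5-fold and no test, 5 genes were higher in endoderm (*Cox7a1*, *Uqcrq*, *Ndufb11*, *Ndufb4* and *Sdhd*) and 3 higher in mesoderm (*Ndufa4l2*, *Cox4i2* and *Cox6b2*), beside 21.8% and 18.2% of all genes. Between endoderm and epiblast, 3 were higher in endoderm (*Cox7a1*, *Cox5a* and *Ndufb11*) and 4 in epiblast (*Ndufa4l2*, *Cox6b2*, *Ndufs4* and *Ndufa7*), beside 24.3% and 20.1% of all genes. Between mesoderm and epiblast, 3 were higher in mesoderm (*Cox4i2*, *Ndufa4l2* and *Cox5a*) and 1 in epiblast (*Cox7a1*), beside 10.2% and 8.59%. Most members are highly expressed, and the counts were also taken over genes with RPKM>50, a level chosen after the data were seen. Past 1.5-fold in either direction were then 4 of 65 for endoderm and mesoderm, 3 of 66 for endoderm and epiblast and 1 of 66 for mesoderm and epiblast. The share of all genes at that level was 35.7%, 43.3% and 9.79%.

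For endoderm to mesoderm the median log2 ratio was 0.10, with 55 genes above 0 and 25 below, while the median over all genes was -0.10. The ratio of endoderm to epiblast had a median of -0.03, with 33 genes above 0 and 46 below, and that over all genes was -0.08. The ratio of mesoderm to epiblast had a median of -0.14, with 17 genes above 0 and 63 below, and that over all genes was 0.02. For these genes mesoderm thus lay a little under both other libraries. Scaling by the trimmed mean of M values shifted the all-gene median from -0.10 to 0.02 for endoderm to mesoderm and from -0.08 to 0.04 for endoderm to epiblast, and turned the members' median of endoderm to epiblast from -0.03 to 0.08. Measured from the median of all genes, the members' median was 0.20 for endoderm to mesoderm (0.19 after scaling), 0.05 for endoderm to epiblast (0.04) and -0.16 for mesoderm to epiblast (-0.16). These genes are short, with a median listed length of 686 bases against 2672 for all genes. Genes under 1000 bases had median log2 ratios of -0.06, -0.20 and -0.14 in the same order of pairs, so that the value of mesoderm to epiblast was close to that of the members.

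**Figure D2:**
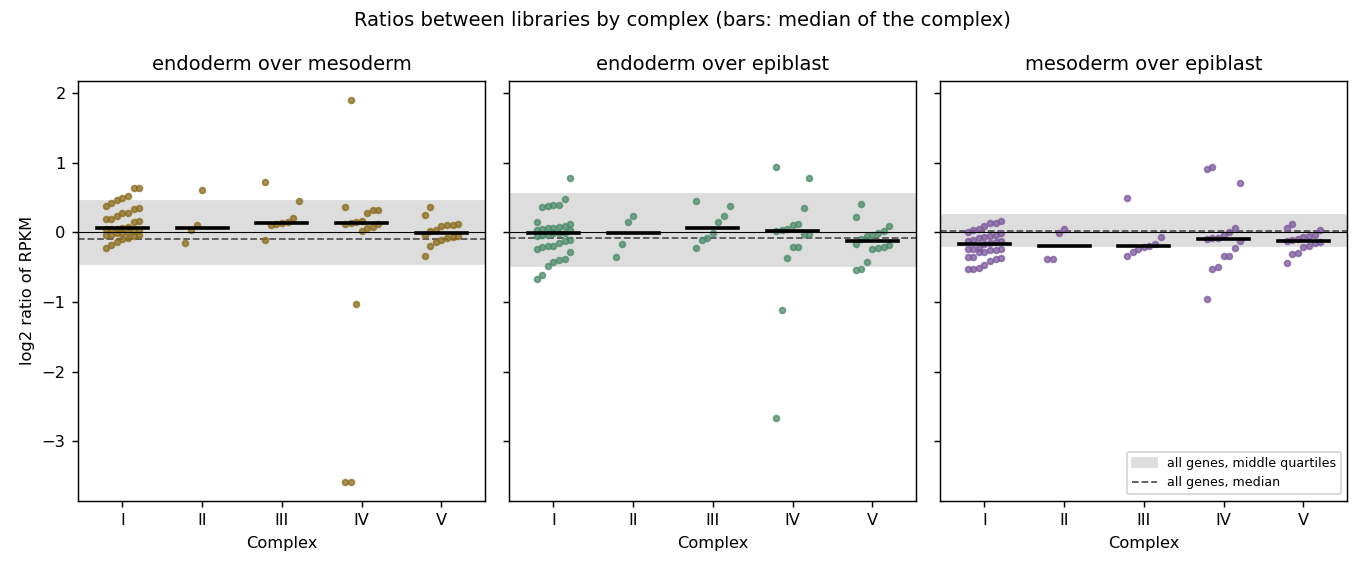
Log2 ratio of RPKM between 2 libraries for each gene past the RPKM filter, by complex, with the median of each complex as a black bar, and the median (dashed line) and middle quartiles (grey band) of all genes past the filter. The complex medians lie between -0.20 and 0.14, and the points farthest from 0 are genes grouped with complex IV.

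The promoters of these genes are known as targets of a small set of factors, which are NRF1, the ETS factor GABP, YY1 and the estrogen-related receptors (ERR). RefSeq promoter windows of GRCm38.p6, from 250 bases before to 50 bases after a start, were present for 68 of the 82 genes, in 74 windows. The genes without a window included *Atp5a1*, *Cox4i1*, *Cox4i2*, *Ndufa4l2*, *Uqcrb* and *Uqcrq*. The NRF1 motif, searched as GCGC, any base and TGCGC on both strands, was in 18 of the 74 windows (24.3%), against 4.6% of all 32851 windows and 11.1% of the 9392 windows of genes with RPKM>5 in any library. The ETS motif CCGGAAG was in 16 windows (21.6%), against 8.86% and 19.6%. The YY1 motif AAGATGGC was in 12 (16.2%), against 2.75% and 5.01%, and 9 of its 12 matches lay 23 to 39 bases after the start. The ERR motif TCAAGGTCA was in 2 (2.7%), those of *Atp5g3* and *Sdhd*, against 0.423% and 0.202%. Of the 74 windows, 40 held at least 1 of the 4 motifs (54.1%, against 15.1% and 31.8%) and 7 held at least 2 kinds (9.46%, against 1.5% and 3.97%). Some windows of the same gene overlap, so that the YY1 match of *Atp5sl* and an NRF1 match of *Ndufa5* were each counted in 2 windows. By gene, 17 of 68 held an NRF1 match and 11 of 68 a YY1 match. A match of letters is not a binding site, and no binding was measured here.

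**Figure D3:**
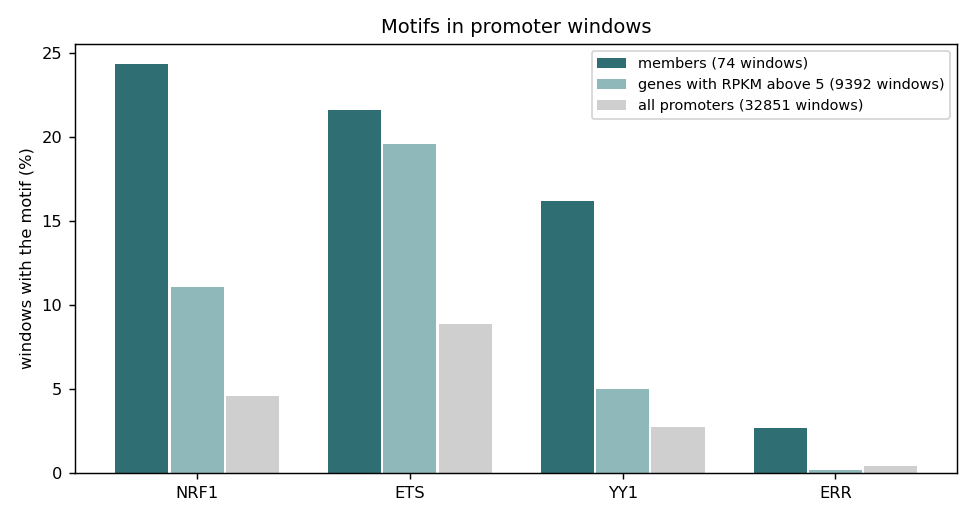
Percent of RefSeq promoter windows with each motif on either strand, for the oxidative phosphorylation genes (74 windows), for genes with RPKM>5 in any library (9392 windows) and for all promoters (32851 windows). The members have the highest percent of the 3 sets for each of the 4 motifs. Against genes with RPKM>5, NRF1 is at 24.3% and 11.1%, YY1 at 16.2% and 5.01% and ERR at 2.7% and 0.202%. For ETS the members, at 21.6%, lie close to those genes, at 19.6%.

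The windows below show these matches in 3 genes that met the criteria in no pair, beside 2 genes that met them, and were chosen after the motifs and values were known. Capitals mark the matches on either strand. *Sdhd* (chr9:50603800-50604099, minus strand), a membrane anchor of complex II, held an NRF1, an ETS and an ERR match. *Cox6a1* (chr5:115348909-115349208, minus strand), of complex IV, held 2 NRF1 matches and an ETS match. *Ndufs6* (chr13:73328433-73328732, minus strand), an accessory subunit of complex I, held an NRF1 and a YY1 match. *Cox7a1* (chr7:30183921-30184220, plus strand) and *Cox6b2* (chr7:4753045-4753344, minus strand), isoforms known from muscle and testis, held none of the 4. Windows with no match were also those of uncalled genes such as *Atp5b*, *Cox5b* and *Uqcrfs1*.
Sdhd: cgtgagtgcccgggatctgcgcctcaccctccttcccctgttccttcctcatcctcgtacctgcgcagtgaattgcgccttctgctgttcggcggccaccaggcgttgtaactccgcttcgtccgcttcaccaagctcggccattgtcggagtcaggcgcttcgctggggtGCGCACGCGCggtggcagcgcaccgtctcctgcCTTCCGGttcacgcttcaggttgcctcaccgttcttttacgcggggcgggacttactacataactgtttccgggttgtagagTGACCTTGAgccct
Cox6a1: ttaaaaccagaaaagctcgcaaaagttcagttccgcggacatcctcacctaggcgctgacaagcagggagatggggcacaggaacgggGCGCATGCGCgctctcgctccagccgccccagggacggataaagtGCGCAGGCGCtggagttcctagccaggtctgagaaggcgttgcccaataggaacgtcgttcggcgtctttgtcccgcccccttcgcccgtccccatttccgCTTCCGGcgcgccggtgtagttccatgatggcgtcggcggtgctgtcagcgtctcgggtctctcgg
Ndufs6: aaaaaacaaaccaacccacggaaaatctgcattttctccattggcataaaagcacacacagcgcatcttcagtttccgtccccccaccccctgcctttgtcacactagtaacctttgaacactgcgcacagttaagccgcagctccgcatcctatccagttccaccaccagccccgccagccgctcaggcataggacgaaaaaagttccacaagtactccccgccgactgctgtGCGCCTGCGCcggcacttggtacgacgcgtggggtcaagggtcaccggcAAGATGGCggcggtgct
Cox7a1: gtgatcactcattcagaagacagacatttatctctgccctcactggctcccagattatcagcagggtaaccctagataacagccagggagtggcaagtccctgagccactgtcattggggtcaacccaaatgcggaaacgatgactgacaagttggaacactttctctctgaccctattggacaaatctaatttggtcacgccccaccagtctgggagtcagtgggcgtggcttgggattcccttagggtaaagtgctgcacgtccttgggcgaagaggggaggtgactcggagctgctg
Cox6b2: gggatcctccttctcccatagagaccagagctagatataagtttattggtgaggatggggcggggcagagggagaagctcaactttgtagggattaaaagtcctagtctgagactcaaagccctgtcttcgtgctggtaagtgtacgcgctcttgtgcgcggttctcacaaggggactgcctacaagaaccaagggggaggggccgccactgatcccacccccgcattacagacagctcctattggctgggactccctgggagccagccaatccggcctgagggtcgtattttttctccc

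Complex I takes up NADH in a peripheral arm and pumps protons in a membrane arm. Its 35 genes had a median RPKM of 67.6 in the endoderm, 65.3 in the mesoderm and 77.1 in the epiblast, and single values ran from 22.7 to 255.3. None met the criteria in any pair. The median log2 ratio was 0.07 for endoderm to mesoderm, -0.01 for endoderm to epiblast (0.09 after scaling by the trimmed mean of M values) and -0.16 for mesoderm to epiblast. The nuclear core subunits carry the flavin, the iron-sulfur clusters and the quinone site. The 6 described next were lower in mesoderm than in both other libraries, by log2 ratios of endoderm to mesoderm between 0.04 and 0.34.

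*Ndufv1*, which binds NADH and the flavin, had an RPKM of 46.3 in the endoderm, 44.0 in the mesoderm and 53.7 in the epiblast. *Ndufv2*, an iron-sulfur subunit beside it, had 130.3, 116.5 and 123.0, and was the most abundant of these 6 in each library. *Ndufs1*, the largest iron-sulfur subunit, had 36.7, 32.2 and 35.3, the lowest of the 6 in each library. *Ndufs7*, at the quinone site, had 104.5, 91.6 and 100.4. *Ndufs3* had 58.4, 56.6 and 66.9, and *Ndufs8*, a further iron-sulfur subunit, had 48.9, 38.5 and 49.2. These subunits thus spanned about the same range in every germ layer, whereas each differed little between layers.

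The 28 accessory subunits stabilise the complex or are needed for its assembly. *Ndufa12* was the most abundant, with an RPKM of 216.4 in the endoderm, 244.4 in the mesoderm and 255.3 in the epiblast, and it has a named pseudogene. *Ndufb2* had the lowest mean, with 23.2, 23.3 and 22.7, the same in all layers within 1.03-fold. Accessory subunits named Ndufb sit in the membrane arm, and 6 of the 10 were highest in endoderm. Those named Ndufa are found in both arms, and 9 of the 12 were highest in epiblast. Over the Ndufb genes the log2 ratio of endoderm to mesoderm had a median of 0.28, and over the Ndufa genes one of 0.02. The difference between the 2 groups was not tested.

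Among the accessory subunits, *Ndufb11* (chromosome X, 20615326 to 20617619) had an RPKM of 145.8 in the endoderm, 93.4 in the mesoderm and 85.4 in the epiblast. It was 1.71-fold higher in endoderm than in epiblast (95% counting interval 1.63 to 1.79) and 1.56-fold higher than in mesoderm (1.49 to 1.63). Its exons overlap those of *Rbm10*, whose own RPKM was lowest in endoderm (38.2, against 51.6 and 50.04). *Ndufb4* had 184.2, 118.9 and 141.2, and was 1.55-fold higher in endoderm than in mesoderm (1.47 to 1.63). *Ndufb10* had 156.7, 109.1 and 112.3. *Ndufs4* and *Ndufa7* ran the other way. *Ndufs4* (chromosome 13, 114287795 to 114388258), whose loss is known to give a Leigh-like encephalopathy, had 22.7, 25.1 and 36.2. In epiblast it was 1.59-fold above endoderm (1.49 to 1.70). *Ndufa7* had 92.7, 97.97 and 141.3, 1.52-fold above endoderm in epiblast (1.44 to 1.62). *Ndufa6*, with 114.1, 82.8 and 118.8, was low in mesoderm alone. *Ndufs5*, with 62.1, 63.5 and 56.9, was among the 2 complex I genes highest in mesoderm.

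Complex II is the only respiratory complex that is wholly encoded in the nucleus, and it is also an enzyme of the TCA cycle. Its 4 genes had similar levels in every library, with single values between 59.9 and 95.2. *Sdha*, the flavoprotein, had an RPKM of 66.5 in the endoderm, 74.4 in the mesoderm and 74.7 in the epiblast. *Sdhb*, the iron-sulfur subunit, had 68.4, 67.0 and 87.8. The membrane anchors *Sdhc* and *Sdhd* had 66.1, 61.7 and 59.9 and 95.2, 62.4 and 81.4. *Sdhd* was 1.53-fold higher in endoderm than in mesoderm (1.46 to 1.59), while the highest and lowest values differed by 1.31-fold for *Sdhb*, 1.12-fold for *Sdha* and 1.10-fold for *Sdhc*. None met the criteria.

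Complex III hands electrons from ubiquinol to cytochrome c. Its 8 genes had a median RPKM of 221.9 in the endoderm, 183.3 in the mesoderm and 205.6 in the epiblast, and none met the criteria. The median log2 ratio was 0.14 for endoderm to mesoderm, 0.06 for endoderm to epiblast (-0.03 under upper-quartile scaling) and -0.20 for mesoderm to epiblast. The core proteins *Uqcrc1* and *Uqcrc2* had 137.4, 125.8 and 148.7 and 91.7, 79.2 and 83.0. *Uqcrfs1*, the Rieske iron-sulfur protein, was the least abundant of the complex at 39.7, 36.8 and 42.0. The small subunits were more abundant per length, with *Uqcr11* highest at 651.8, 477.1 and 554.3. *Uqcrq* (chromosome 11, 53427922 to 53430831) had 298.9, 181.2 and 220.0 and was 1.65-fold higher in endoderm than in mesoderm (1.58 to 1.72). *Uqcrb* had 264.0, 285.5 and 203.4, and was the 1 gene of the complex highest in mesoderm, 1.403-fold above epiblast (1.35 to 1.46). *Uqcrh*, the hinge protein, had 205.6, 185.3 and 207.7, and it has 2 named pseudogenes.

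The genes grouped here with complex IV included every gene that met the criteria and also genes that hardly differed. Of those that met them, *Ndufa4l2* is not an accepted subunit. Among accepted subunits alone, 3 genes met the criteria between endoderm and mesoderm and 1 between endoderm and epiblast. Over the 17 genes of this group the summed RPKM was 3374 in the endoderm, 3021 in the mesoderm and 3339 in the epiblast. The abundant subunits were nearly even. *Cox6a1* had 546.4, 449.3 and 430.1, *Cox5b* had 391.7, 376.7 and 399.7, and *Cox8a* had 253.8, 229.8 and 245.6. *Cox7c*, with 473.6, 434.7 and 612.3, stood highest in epiblast, at 1.41 times its mesoderm value. *Cox7b* had 188.2, 168.9 and 184.9. *Ndufa4*, once counted with complex I and now placed in complex IV, had 326.4, 301.9 and 300.6.

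*Cox5a* (chromosome 9, 57521274 to 57532426), a subunit on the matrix side, was the only abundant gene of complex IV past 1.5-fold. It had an RPKM of 144.0 in the endoderm, 137.0 in the mesoderm and 83.9 in the epiblast, from 4242, 3956 and 2532 reads. Endoderm and mesoderm lay close together and epiblast was low, 1.72-fold below endoderm (1.63 to 1.81) and 1.63-fold below mesoderm (1.55 to 1.72). Its partner *Cox5b* differed by at most 1.06-fold.

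The alternative isoforms of complex IV differed between layers by more than the common forms they stand in for. *Cox4i2* (chromosome 2, 152754173 to 152765037), a form of subunit 4 known from lung and low oxygen, had 21 reads in the endoderm, 246 in the mesoderm and 134 in the epiblast. Its RPKM was 0.693 (95% Poisson interval 0.429 to 1.06), 8.28 (7.28 to 9.39) and 4.32 (3.62 to 5.11). It was 11.9-fold higher in mesoderm than in endoderm (7.64 to 19.6). Epiblast was 6.22-fold above endoderm (3.91 to 10.4), a difference outside the criteria since neither library reached RPKM>5. The common form *Cox4i1* had 307.8, 238.5 and 303.2, so that *Cox4i2* made up 0.225% of the summed RPKM of both forms in the endoderm, 3.36% in the mesoderm and 1.4% in the epiblast. The order of the layers was thus reversed between the 2 forms at their extremes, with *Cox4i1* lowest and *Cox4i2* highest in mesoderm.

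*Ndufa4l2* (chromosome 10, 127514967 to 127517154), a relative of *Ndufa4* known as a target of the hypoxia-inducible factor, followed the same order. It had 40, 469 and 261 reads and an RPKM of 0.974 in the endoderm (0.696 to 1.33), 11.6 in the mesoderm (10.6 to 12.7) and 6.2 in the epiblast (5.47 to 7.0). It was 12.0-fold higher in mesoderm (8.65 to 17.0) and 6.36-fold higher in epiblast (4.55 to 9.12), both against endoderm. Mesoderm and epiblast differed by 1.88-fold (1.61 to 2.19). Its exons overlap at one end those of *Shmt2*, on the opposite strand, and since the use of strand in counting is not given, it is not known whether reads of the overlap were told apart. *Shmt2* was highest in endoderm and was, like *Ndufa4l2*, higher in mesoderm than in epiblast, with an RPKM of 80.6, 75.8 and 70.2.

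*Cox6b2* (chromosome 7, 4751792 to 4753094), the form of subunit 6b known from testis, had 154, 309 and 341 reads. Its RPKM was 6.71 in the endoderm (5.69 to 7.86), 13.7 in the mesoderm (12.2 to 15.3) and 14.5 in the epiblast (13.0 to 16.1). Mesoderm and epiblast were alike within counting error, at 1.06-fold (0.902 to 1.24), and stood 2.05-fold (1.68 to 2.50) and 2.16-fold (1.78 to 2.63) above endoderm. Both counting intervals reach below the Fold Change criterion of 2. *Cox6b1*, the common form, had 342.4, 312.2 and 319.9, and *Cox6b2* made up 1.92%, 4.21% and 4.33% of the pair.

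*Cox7a1* (chromosome 7, 30184144 to 30186078), the heart and skeletal muscle form of subunit 7a, was the only 1 of these minor isoforms highest in endoderm. It had 205, 54 and 110 reads and an RPKM of 12.5 (10.9 to 14.4), 3.36 (2.53 to 4.39) and 6.55 (5.39 to 7.90). It was 3.72-fold higher in endoderm than in mesoderm (2.75 to 5.12) and 1.91-fold higher than in epiblast (1.51 to 2.43). Mesoderm was low, while 5 of the 6 cardiac muscle markers were highest there. *Cox7a2*, the common form, had 133.5, 107.4 and 154.7, and *Cox7a2l*, which joins complexes III and IV into supercomplexes, had 76.2, 61.2 and 77.8. *Cox7a1* made up 8.57%, 3.04% and 4.06% of the summed RPKM of *Cox7a1* and *Cox7a2*. Of the other tissue forms, *Cox7b2* had 1 read, in mesoderm, and *Cox6a2*, *Cox8b* and *Cox8c* were not listed in any library. A count of 0 allows up to 3 reads.

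**Figure D4:**
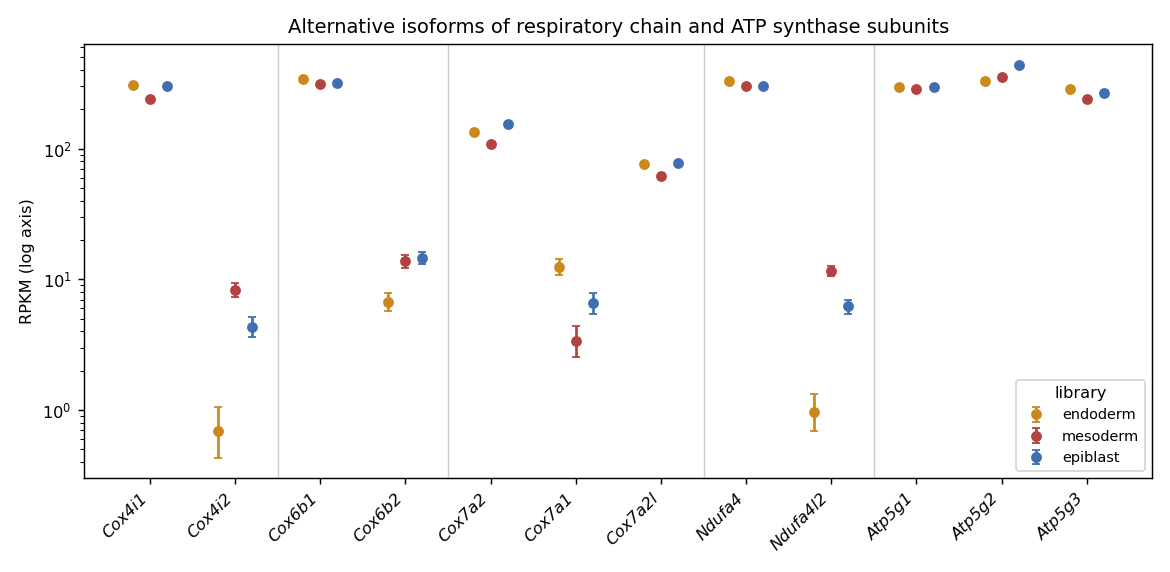
RPKM (log axis) of the alternative isoforms of complex IV, of Ndufa4 and Ndufa4l2 and of the c subunit of complex V in each library, with 95% Poisson intervals of the reads. Cox4i2, Ndufa4l2 and Cox6b2 are lowest in endoderm, Cox7a1 is highest there, and the intervals of the abundant forms are smaller than their symbols.

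Complex V turns the proton gradient into ATP with a catalytic head, a rotating c ring and a stalk between them. Its 17 genes took 0.478% of the reads in the endoderm, 0.482% in the mesoderm and 0.521% in the epiblast, which was the largest share of the 5 complexes, and 12 of the 17 were highest in epiblast. None met the criteria. The median log2 ratio was -0.02 for endoderm to mesoderm (0.10 after scaling by the trimmed mean of M values), -0.13 for endoderm to epiblast (-0.02) and -0.12 for mesoderm to epiblast. *Atp5b*, the catalytic beta subunit, was the most abundant of all 82 genes, with an RPKM of 804.3, 840.1 and 929.4. *Atp5a1*, the alpha subunit, had 459.6, 475.8 and 515.8. Both were lowest in endoderm and highest in epiblast, within 1.16-fold.

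The other parts of the head and the central stalk were *Atp5c1* at 155.6, 160.5 and 154.0, *Atp5d* at 299.8, 232.4 and 226.4 and *Atp5e* at 75.3, 70.2 and 80.5. *Atp5d* was highest in endoderm. *Atp5o*, which ties the head to the peripheral stalk, had 225.8, 247.6 and 263.6, and *Atp5h* in that stalk had 178.2, 204.3 and 210.1. The c subunit is encoded by 3 genes that give the same mature protein. *Atp5g1* was even at 293.5, 285.8 and 296.3, *Atp5g2* was highest in epiblast at 326.4, 353.8 and 437.7, and *Atp5g3* was highest in endoderm at 284.1, 239.8 and 267.4. *Atp5g2* made up 36.1%, 40.2% and 43.7% of their sum. *Atp5l*, a subunit of the membrane part, had 76.1, 80.6 and 109.5, the widest spread among accepted subunits of the complex at 1.44-fold, and it has 2 named pseudogenes.

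A few genes matched by the rule are not accepted subunits, among them *Ndufa4l2* and *Cox7a2l*, whose values are given above. *Atp5s*, a coupling factor, had 194, 109 and 78 reads and an RPKM of 3.14, 1.80 and 1.23, below the filter in every library. It was 2.55-fold higher in endoderm than in epiblast (1.95 to 3.36). *Atp5sl*, now called *Dmac2* and known as an assembly protein of complex I, had 13.0, 16.4 and 19.0. *Cox4nb*, now called *Emc8*, is a subunit of the endoplasmic reticulum membrane complex whose exons overlap those of *Cox4i1*. It had 17.0, 21.4 and 23.2. The 77 accepted subunits alone had median log2 ratios of 0.10, -0.02 and -0.14 in the same order of pairs.

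Some genes tied to oxidative phosphorylation lie outside the rule, and some of these met the criteria. *Ndufab1*, the mitochondrial acyl carrier protein and a subunit of complex I, had an RPKM of 136.1 in the endoderm, 134.9 in the mesoderm and 63.0 in the epiblast. It was higher than in epiblast by 2.16-fold in endoderm and 2.14-fold in mesoderm, and both pairs met the criteria. *Cyc1*, the cytochrome of complex III, had 145.7, 133.0 and 177.5, *Cycs*, cytochrome c, had 75.4, 93.9 and 74.3, and *Atpif1*, the inhibitor of the ATP synthase, had 487.8, 392.3 and 380.2. *Usmg5*, a small protein bound to the ATP synthase, had 164.1, 156.5 and 144.9. None of these 4 met the criteria. *Slc25a4*, which exchanges ADP for ATP across the inner membrane, had 385.9, 197.3 and 79.4 and met the criteria in endoderm and in mesoderm against epiblast, at 4.86-fold and 2.49-fold. Its relative *Slc25a5* had 373.5, 331.3 and 400.2 and did not meet them.

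The list of assembly factors held 45 genes, of which 41 passed the RPKM filter in each pair. *Cox14* (listed as *2310016M24Rik*), at 23.1, 10.8 and 13.9, and *Coa4* (listed as *Chchd8*), at 18.7, 7.93 and 8.40, were higher in endoderm than in mesoderm by the criteria. *Coa4* was also called against epiblast. Called were thus 2 of 41 against mesoderm and 1 of 41 against epiblast, beside 14.4% and 15.7% of all genes tested. No assembly factor was called between mesoderm and epiblast or in the opposite direction. *Cox14* and *Coa4* act on complex IV, as do other listed factors, such as *Surf1*, that were not called.

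Among 14 regulators of mitochondrial genes, *Esrra*, the estrogen-related receptor alpha, had an RPKM of 16.3 in the endoderm, 3.46 in the mesoderm and 3.18 in the epiblast. It met the criteria against both, and its exons overlap those of *Trmt112*, which ran the other way at 94.3, 142.9 and 151.0. *Polg*, the mitochondrial DNA polymerase, had 66.2, 64.0 and 11.9 and met the criteria in both other layers against epiblast. Its exons overlap those of *Fanci*, which had 6.99, 7.69 and 9.32. *Nrf1* had 13.8, 22.2 and 25.1, *Gabpa* had 18.2, 25.8 and 23.2, *Yy1* had 36.7, 47.9 and 41.2 and *Tfam*, the packaging factor of mitochondrial DNA, had 16.7, 20.9 and 22.1. These 4 were lowest in endoderm and none met the criteria. *Ppargc1a*, the coactivator known for driving mitochondrial biogenesis in muscle and brown fat, had 52 reads in the endoderm, 3 in the mesoderm and 11 in the epiblast, an RPKM of at most 0.192.

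Genes of neighbouring pathways were set beside the members. None of 17 genes of the TCA cycle and pyruvate dehydrogenase met the criteria in any pair, and all 17 stayed within 1.5-fold. Of all genes past the filter, 60.0% stayed within 1.5-fold for endoderm and mesoderm, 55.6% for endoderm and epiblast and 81.2% for mesoderm and epiblast. Of 76 mitochondrial ribosomal protein genes, *Mrps6* was the only one called, with 22.6, 58.4 and 25.2. Its exons overlap those of *Slc5a3*. It was higher in mesoderm than in endoderm and in epiblast, where 8.56% and 5.3% of all genes tested were called. The glycolysis genes differed more. They took 1.24% of the reads in the endoderm, 1.93% in the mesoderm and 2.47% in the epiblast, and 14 of 15 were highest in epiblast. Of all genes tested, 8.94% were called higher in epiblast than in endoderm. Between endoderm and epiblast, 7 of the 14 glycolysis genes that passed the filter met the criteria, all higher in epiblast. They were *Hk1*, *Hk2*, *Pfkl*, *Pfkm*, *Aldoa*, *Pgk1* and *Pkm2*, and *Hk1* was also called higher in epiblast than in mesoderm. *Pkm2*, pyruvate kinase, had an RPKM of 1478, 2676 and 3276, and *Ldha*, which makes lactate, had 1016, 1434 and 1859 and did not meet the criteria. The 85 cytosolic ribosomal protein genes, with 6.30%, 7.90% and 8.66% of the reads, had median log2 ratios of -0.32, -0.46 and -0.16. The difference between lists was not tested.

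**Figure D5:**
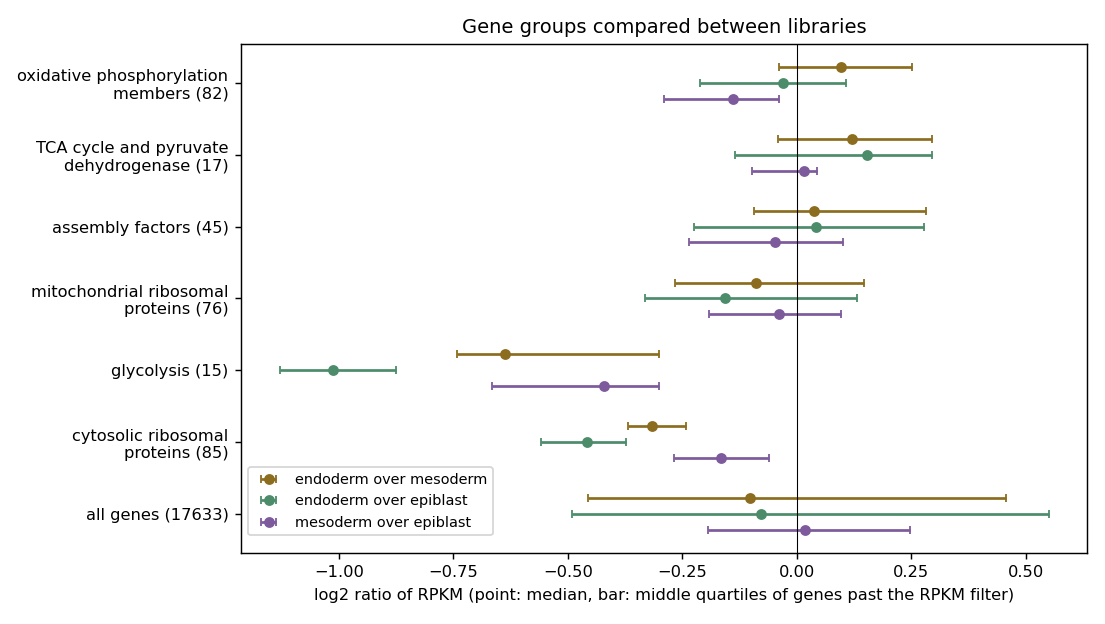
Median (point) and middle quartiles (bar) of the log2 ratio of RPKM between 2 libraries for 6 gene groups and all genes, over the genes past the RPKM filter, with the number of listed genes in brackets. The oxidative phosphorylation genes lie near 0 in each pair, with medians of 0.10, -0.03 and -0.14, while glycolysis has medians of -0.64, -1.01 and -0.42.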

How the data were processed

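RNA-seq libraries of endoderm, mesoderm and epiblast (n = 1 each) were analysed. For each gene the authors deposited the count of uniquely mapped reads, the RPKM and the percent of the gene length covered. From the deposited reads, RPKM could be recomputed with the gene length and the total of reads on genes. The submitters' processing notes name TopHat, mm10 and mm9, with no role. The paper names TopHat and GRCm38/mm10 for the mapping in its splicing analysis. The aligner and counter of the gene tables and the use of strand are not given in the sources used here. An unlisted gene was taken as 0 reads.

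Members were matched by symbol. Members and lists were chosen with earlier results of these data known. Older symbols were matched through RefSeq synonyms, and positions came from the GENCODE annotation of GRCm38. Log2 ratios used the deposited RPKM with no pseudocount and a floor of 3 reads. Genes were called at a fold above 2 and an FDR below 0.001, with RPKM above 5 in either library. The FDR came from Audic and Claverie's exact test (two-sided), adjusted by Benjamini-Hochberg over all genes. With 1 library per group, a quasi-likelihood fit in edgeR was not possible. Tested on simulated data for endoderm and epiblast (17633 genes, counting noise only), 200 of 200 genes raised 4-fold and 0 others were called. Since only 4-fold changes and counting noise were simulated, this does not bear on calls close to 2-fold or on noise between libraries. Fold intervals are exact binomial intervals of the reads.

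Named were the isoform families, members that met the criteria, the 5 largest ratios in each direction and pair, the 2 most abundant genes of each complex, core complex I, complex II, and the listed carriers and regulators. Other members are named from their values, and 1 member is not reported here. Alternatives were 3 other scalings, other RPKM filters, a pseudocount of 1, no FDR criterion, the exact test of edgeR with the biological coefficient of variation set to 0.2, accepted subunits alone and other denominators. Filters of RPKM>50 and of 90% coverage were added after the data were seen. Software was R 4.3.3 with edgeR 4.0.16, and Python 3.11.15 with numpy 2.4.6, pandas 2.3.3, matplotlib 3.10.9 and SciPy 1.17.1.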

Additional observations from a re-analysis of the deposited data

How the results depend on the processing

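No paired analysis was possible because each germ layer has 1 library. No direction of a called gene was reversed under any alternative run. The median log2 ratio of members moved with the scaling, from 0.10 to 0.21 (both the trimmed mean of M values and the median of ratios) between endoderm and mesoderm and from -0.029 to 0.0805 between endoderm and epiblast. Complex medians involving endoderm moved by a like amount under these scalings, and the sign turned for complexes I and II between endoderm and epiblast and for complex V between endoderm and mesoderm. Upper-quartile scaling turned complexes III and IV between endoderm and epiblast, to -0.034 and -0.077. Complex V between endoderm and mesoderm also turned, to 0.015, with RPKM>1, no RPKM filter or accepted subunits alone, and complex IV between endoderm and epiblast, to -0.0035, under both of these filters. Without an RPKM filter the members' median relative to all genes between endoderm and epiblast turned to -0.0060. Under the trimmed mean of M values or the median of ratios, *Cox6b2* was lost between endoderm and mesoderm (3 members called, against 4) and *Cox7a1* was gained between endoderm and epiblast (3, against 2). Members past 1.5-fold higher in epiblast than endoderm went from 4 to 2 under either scaling, and those higher in endoderm than mesoderm from 5 to 3 under upper-quartile scaling, which also called *Cox7a1* between mesoderm and epiblast, 1 against 0. With RPKM>1 or no RPKM filter, 4 members met the criteria between endoderm and epiblast, against 2, the added ones being *Cox4i2* and *Atp5s*. Accepted subunits alone left 1. With RPKM>50, members past 1.5-fold numbered 0 higher in mesoderm than endoderm, 1 higher in epiblast than endoderm, 1 higher in mesoderm than epiblast and 0 higher in epiblast than mesoderm, and the median relative to all genes became 0.20 between endoderm and epiblast, against 0.05. This filter removes the low isoforms. With coverage of at least 90% in every library, members past 1.5-fold higher in mesoderm than endoderm fell from 3 to 0. Those higher in epiblast than endoderm fell from 4 to 2 and those higher in mesoderm than epiblast from 3 to 1. The counts in the opposite directions stayed at 5, 3 and 1. *Cox4i2* and *Ndufa4l2* had 62.7% and 88.3% of their length covered in endoderm, and *Cox6b2* had 87.3% in mesoderm. Read shares were 1.18%, 1.09% and 1.20% in endoderm, mesoderm and epiblast without the 10 genes with the most reads, and 1.08%, 1.02% and 1.12% for accepted subunits alone. The exact test of edgeR was run with the biological coefficient of variation set to 0.2 and with FDR<0.05, a looser cutoff than FDR<0.001. It called 3, 2 and 0 members in the 3 pairs. Depth limits the minor isoforms, and pooled RNA gives no spread between embryos.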

Other observations

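The share of the gene length covered by reads differed by more than 10 percentage points between libraries for 8 of the 82 genes. *Atp5c1*, the gamma subunit of the ATP synthase, had 74.5% of its length covered in endoderm, 83.1% in mesoderm and 97.0% in epiblast, while its RPKM was 155.6, 160.5 and 154.0. *Cox7b* had 73.6%, 80.3% and 88.0% covered at an RPKM of 188.2, 168.9 and 184.9. *Ndufv2* ran the other way, with 87.2%, 84.9% and 73.6% covered at an RPKM of 130.3, 116.5 and 123.0. *Cox4i2*, with 21 reads in endoderm, had 62.7%, 95.9% and 92.4% covered. Exon usage was not analysed here.

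Exons of another gene overlap those of 27 of the 82 genes, and 8 have a named pseudogene in the annotation. The cause of a difference in such genes was not tested. Mitochondrially encoded subunits were not analysed here.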
